A study of Homo sapiens with 12 samples.

Results

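LCE1C, LCE1F, CLCA2, TRIM29, CSTA and FLG-AS1 are genes of the epidermis and of squamous epithelia, described here in a colon cancer line in which p53 was activated. They were picked by gene symbol, with their measured responses already known, and all 6 were found among the 23195 genes listed for the Nutlin-3a comparisons and among the 19393 listed in all 4 comparisons. Because the choice rested on those responses, the values of the 6 genes are given as a description, and calls made over whole tables are no evidence on them. The working name for the set, epidermal genes induced by p53, went against the data for CSTA, whose level was lower with Nutlin-3a in control cells.

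RNA with a poly(A) tail was sequenced from HCT116, an established human colorectal carcinoma line that carries wild-type p53. Cells were transfected with siControl, a control siRNA, or with siRFX7, which targets the winged-helix transcription factor RFX7, and were then given DMSO or 10 µM Nutlin-3a for 24 h. Nutlin-3a blocks the binding of MDM2 to p53 and so stabilises p53. The 4 groups were siControl with DMSO, siControl with Nutlin-3a, siRFX7 with DMSO and siRFX7 with Nutlin-3a, each with 3 libraries, 12 in all. All groups were transfected, so no untransfected cells were compared. The siRNA sequences, and whether the 3 libraries of a group came from separate cultures, are not given in the sources used here, so errors cover only the spread between these libraries, which may be technical. The deposited values are group statistics, so a level below is the group's mean normalized count per library, recovered from the authors' deposited tables. Its standard error (SE, n = 3) was solved from the standard errors of the authors' model, and for means under 0.5 it can understate counting error. This SE uses a spread fitted per gene and shared by the 4 groups, so it does not measure the spread within a single group.

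The outermost cells of the epidermis replace their membrane with a cornified envelope, a shell of proteins that transglutaminases cross-link and that lipids cover. Many of its proteins are encoded side by side in the epidermal differentiation complex at 1q21, which holds the late cornified envelope (LCE) genes, involucrin, the small proline-rich proteins, filaggrin and many S100 genes. p53, best known for cell cycle arrest and cell death after stress, acts as a transcription factor that binds pairs of half-sites in DNA, and its relative p63 is a main regulator of squamous cells.

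LCE1C and LCE1F lie close together in the LCE1 cluster, and the DNA just before their start sites is shown because these related neighbours passed from under 3 counts without Nutlin-3a to well above that with it. The bases from 130 to 44 before the RefSeq start sites (GRCh38.p14) are printed from 5′ to 3′ on the gene's own strand for LCE1C at chr1:152806695-152806781 on the minus strand, LCE1F at chr1:152775010-152775096, LCE1E at chr1:152786127-152786213 and LCE1D at chr1:152796591-152796677, the last 3 on the plus strand. Capitals mark the longest run of bases that all 4 share.
LCE1C: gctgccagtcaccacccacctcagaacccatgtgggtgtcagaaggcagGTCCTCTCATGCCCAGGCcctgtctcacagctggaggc
LCE1F: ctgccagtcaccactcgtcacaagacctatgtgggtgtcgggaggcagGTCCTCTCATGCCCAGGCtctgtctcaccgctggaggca
LCE1E: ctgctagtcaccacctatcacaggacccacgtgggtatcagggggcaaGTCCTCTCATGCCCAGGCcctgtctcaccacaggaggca
LCE1D: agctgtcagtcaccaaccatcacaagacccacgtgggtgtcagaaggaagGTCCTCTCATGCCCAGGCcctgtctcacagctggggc

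The shared run is 18 bases long and begins 80 to 82 bases before the start site. It occurs, on either strand, in 4 of 35116 RefSeq promoters of 250 bases before to 50 bases after the start, or 0.0114%, which are these 4. The run was taken as what these 4 share, so its presence in them was fixed beforehand. The share is therefore no evidence on their response. A TATA-type box, searched as ATAAAAGG on both strands, begins 28 bases before the start site in all 4, after the part printed, and 1.39% of all promoters hold it. The promoter of LCE1A, also searched, held neither the shared run nor this box. The level of LCE1D was not analysed here, so run and box are not tied to a response to Nutlin-3a. Over the 130 bases before the start, LCE1E and LCE1F were identical at 83.1% of bases and LCE1C and LCE1F at 73.1%. CLCA2 is shown because the stretch from 130 to 71 bases before its RefSeq start site holds 2 adjoining p53 half-sites with 3 mismatches to the consensus in all, marked in capitals, at chr1:86424041-86424100 on the plus strand.
CLCA2: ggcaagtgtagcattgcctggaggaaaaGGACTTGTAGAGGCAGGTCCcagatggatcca

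The CLCA2 pair begins 102 bases before the RefSeq start site, but GENCODE places the start of CLCA2 at 86424086, within the pair. LCE1E also begins earlier in GENCODE than in RefSeq, at 152786214, just after the part printed. Such a pair, with up to 3 mismatches, is in 1.12% of promoters, an exact half-site of 10 bases in 6.63%, and a half-site with up to 1 mismatch in 45.1%. LCE1E held 1 exact half-site and 1 adjoining pair, beginning 88 bases before its start, whereas LCE1C and LCE1F each held 1 half-site with 1 mismatch and no pair. These are matches of letters in a short window and not binding sites, and binding was not measured. Promoters of TRIM29, CSTA and FLG-AS1 were not analysed here.

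LCE1C and LCE1F encode small proteins that are joined to the cornified envelope late in differentiation. LCE1C (ENSG00000197084) lies on the minus strand of chromosome 1, from 152804835 to 152806628 (GENCODE release 29 on GRCh38, as for the other genes). Its level was 0.359 ± 0.295 with siControl and DMSO, 45.4 ± 6.24 with siControl and Nutlin-3a, 0.950 ± 0.572 with siRFX7 and DMSO, and 89.1 ± 11.02 with siRFX7 and Nutlin-3a. Both DMSO groups were under 3 counts, the level treated here as a floor, and both Nutlin-3a groups were far above it. Against that floor LCE1C was at least 15.1-fold higher with Nutlin-3a in siControl cells and at least 29.7-fold higher in siRFX7 cells, and within Nutlin-3a it was 1.96-fold higher with siRFX7 than with siControl (1.63 to 2.36 for 1 SE).

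LCE1F (ENSG00000240386, chromosome 1 from 152776372 to 152776728, plus strand) showed the same split between DMSO and Nutlin-3a. Its level was 0.184 ± 0.151 with siControl and DMSO, 65.7 ± 7.42 with siControl and Nutlin-3a, 0.340 ± 0.279 with siRFX7 and DMSO, and 129 ± 13.1 with siRFX7 and Nutlin-3a. With Nutlin-3a it was at least 21.9-fold higher in siControl cells and at least 42.9-fold higher in siRFX7 cells, and within Nutlin-3a it was 1.96-fold higher with siRFX7 (1.68 to 2.28 for 1 SE). For both genes the 2 DMSO groups were at or under the floor, so no fold between siRFX7 and siControl is given there. The fitted log2 fold changes with Nutlin-3a in the authors' deposited tables were 6.98 (SE 1.20) and 6.55 (SE 0.87) for LCE1C and 8.48 (SE 1.20) and 8.56 (SE 1.19) for LCE1F, in siControl and siRFX7 cells, and with a group this close to 0 they depend on the model more than on the counts.

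The LCE1 genes are near copies of each other, and how the counting treated reads that match several of them is not given in the sources used here. Of the 687 windows of 50 bases in LCE1C transcripts, 155 (22.6%) also occur in another gene, in each case LCE1A, LCE1B, LCE1D or LCE1E. For LCE1F it was 16 of 308 windows (5.19%), shared with LCE1D and LCE1E. The values of single LCE1 genes are therefore uncertain to that extent. The annotated LCE1F gene of 357 bases also begins downstream of the RefSeq start site used above.

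CLCA2 (ENSG00000137975, chromosome 1 from 86424086 to 86456558, plus strand) encodes a membrane protein of stratified epithelia that regulates chloride currents, and it is a known p53 target. Its level was 0.667 ± 0.475 with siControl and DMSO, 63.9 ± 7.38 with siControl and Nutlin-3a, 5.38 ± 1.42 with siRFX7 and DMSO, and 161 ± 16.2 with siRFX7 and Nutlin-3a. Only the siControl DMSO group was under the floor, and the highest group was again siRFX7 with Nutlin-3a. CLCA2 was at least 21.3-fold higher with Nutlin-3a in siControl cells and 29.9-fold higher in siRFX7 cells (22.6 to 39.4 for 1 SE). With siRFX7 it was at least 1.79-fold higher in DMSO and 2.51-fold higher in Nutlin-3a (2.16 to 2.93 for 1 SE). The DMSO difference rested on few counts, with a log2 fold change of 3.01 (SE 1.09) in the authors' deposited table. CLCA2 was the only one of 4 CLCA family genes analysed here, and it shared no window of 50 bases with another gene.

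TRIM29 (ENSG00000137699, chromosome 11 from 120111275 to 120185529, minus strand) encodes a tripartite motif protein that is abundant in basal cells of squamous epithelia. Its level was 10.7 ± 1.97 with siControl and DMSO, 167 ± 11.6 with siControl and Nutlin-3a, 75.3 ± 6.42 with siRFX7 and DMSO, and 460 ± 27.4 with siRFX7 and Nutlin-3a. All 4 groups were above the floor and stood apart by more than their errors. Nutlin-3a went with a 15.7-fold higher level in siControl cells (12.9 to 19.1 for 1 SE) and a 6.11-fold higher level in siRFX7 cells (5.51 to 6.77). siRFX7 went with a 7.05-fold higher level in DMSO (5.76 to 8.64) and a 2.75-fold higher level in Nutlin-3a (2.51 to 3.02). In DMSO, siRFX7 cells held 45.0% of the TRIM29 level that Nutlin-3a gave in siControl cells.

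FLG-AS1 (ENSG00000237975, chromosome 1 from 152168125 to 152445456, plus strand) is a long antisense RNA gene that runs across the filaggrin gene in the same complex as the LCE genes. Its level was 4.0 ± 1.20 with siControl and DMSO, just above the floor, 78.8 ± 8.06 with siControl and Nutlin-3a, 43.3 ± 5.11 with siRFX7 and DMSO, and 133 ± 12.4 with siRFX7 and Nutlin-3a. The order of the groups was that of TRIM29. FLG-AS1 was 19.7-fold higher with Nutlin-3a in siControl cells (14.3 to 27.0 for 1 SE) but 3.07-fold higher in siRFX7 cells (2.65 to 3.57). With siRFX7 it was 10.8-fold higher in DMSO (7.85 to 14.9) and 1.69-fold higher in Nutlin-3a (1.47 to 1.94), and its siRFX7 DMSO level was 55.0% of the siControl Nutlin-3a level.

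The handling of strand in the counting is not given in the sources used here, so reads from FLG-AS1 and from genes on the other strand cannot be told apart where exons overlap. Filaggrin (FLG) shares 704 exon bases with FLG-AS1 on the opposite strand, of the 7691 exon bases of FLG-AS1, and was itself not analysed here. HRNR, FLG2 and CRNN lie within the span of FLG-AS1 on the opposite strand but share no exon base with it. HMGN3P1, a processed pseudogene inside the span on the same strand, shares no exon base with FLG-AS1 and moved the other way with Nutlin-3a, from 137 to 90.8 in siControl cells and from 96.9 to 47.5 in siRFX7 cells.

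CSTA (ENSG00000121552, chromosome 3 from 122325244 to 122341972, plus strand) encodes cystatin A, an inhibitor of cysteine proteases that is also a part of the cornified envelope. Its level was 401 ± 20.6 with siControl and DMSO, 243 ± 13.7 with siControl and Nutlin-3a, 106 ± 7.47 with siRFX7 and DMSO, and 145 ± 9.29 with siRFX7 and Nutlin-3a. The control cells without Nutlin-3a thus held the highest level, which was true of no other gene of the set. With Nutlin-3a, CSTA was 1.65-fold lower in siControl cells (1.53 to 1.78 for 1 SE) and 1.36-fold higher in siRFX7 cells (1.24 to 1.498). With siRFX7 it was 3.77-fold lower in DMSO (3.46 to 4.11) and 1.67-fold lower in Nutlin-3a (1.54 to 1.82). In the authors' deposited tables its log2 fold changes with Nutlin-3a were -0.72 (SE 0.11) in siControl cells and 0.45 (SE 0.14) in siRFX7 cells.

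**Figure D1:**
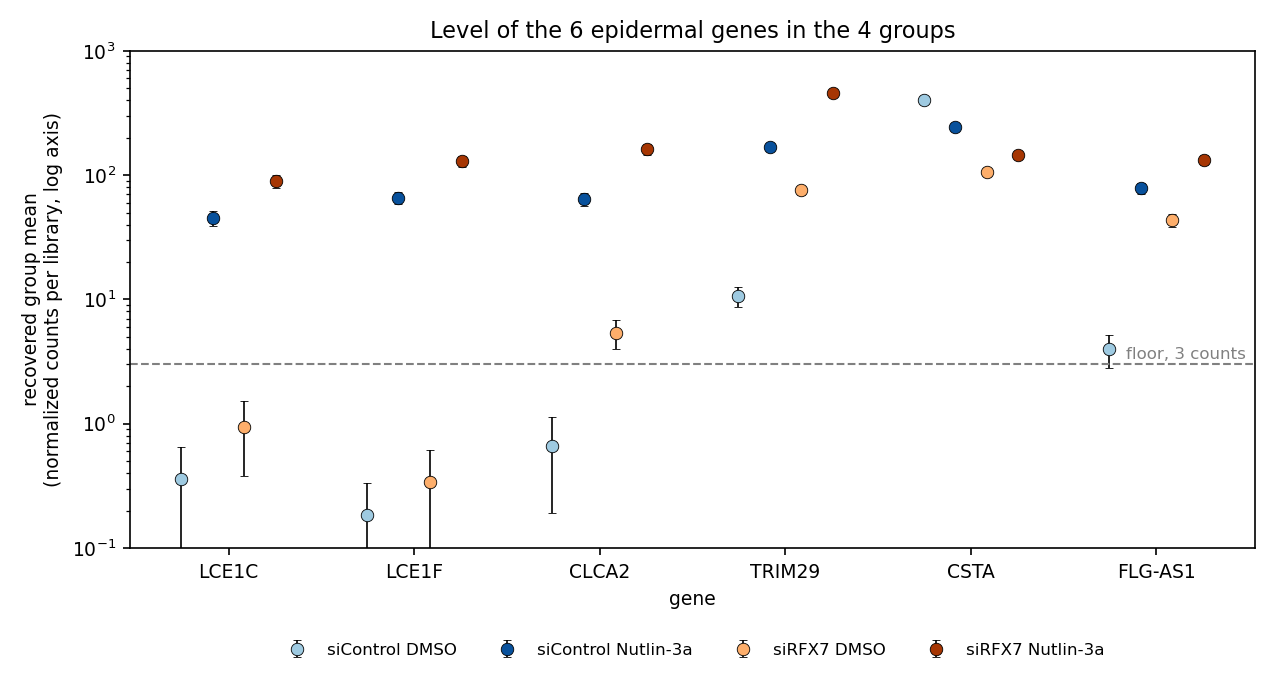
Recovered group mean of each of the 6 genes in the 4 groups, in normalized counts per library on a log axis. Points are group means, bars are 1 model SE (n = 3 libraries; bars that pass the lower edge are cut off there) and the dashed line is the floor of 3 counts. LCE1C and LCE1F lie under the floor in both DMSO groups, siRFX7 with Nutlin-3a is the highest group for 5 genes, and CSTA is highest in siControl DMSO.

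In siControl cells, 5 of the 6 genes were called higher with Nutlin-3a and CSTA was called lower, where a gene is called if DESeq2's adjusted p-value in the authors' deposited tables is below 0.05. Of all genes listed, 22% were called higher and 21.2% lower there. In siRFX7 cells all 6 were called higher with Nutlin-3a, against 21.7% of all genes called higher and 19.7% lower. With all 4 groups scaled to equal totals, the splits over all genes turned from 5107 higher and 4915 lower to 4824 and 5158 in siControl cells, and from 5022 and 4579 to 4435 and 5252 in siRFX7 cells. For siRFX7 in DMSO, CLCA2, TRIM29 and FLG-AS1 were called higher, CSTA was called lower, and LCE1C and LCE1F were not called, beside 13.5% of all genes called higher and 15.5% lower. With equal totals, the split over all genes in that comparison turned from 2704 higher and 3107 lower to 3391 higher and 2262 lower, while the 6 genes kept their calls. For siRFX7 in Nutlin-3a, 5 genes were called higher and CSTA lower, beside 15% and 13.6% of all genes. The genes were chosen with these responses known, so nothing is read from their counts against these shares.

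The 4 comparisons share libraries. The siControl DMSO libraries serve both the Nutlin-3a comparison in siControl cells and the siRFX7 comparison in DMSO, and the siControl Nutlin-3a libraries serve both the Nutlin-3a comparison and the siRFX7 comparison in Nutlin-3a, so values of different comparisons are set side by side without a correlation. The 2 Nutlin-3a comparisons share none, and their difference, the interaction, is the log2 fold change in siRFX7 cells minus that in siControl cells. It was -2.68 (SE 0.50) for FLG-AS1, -1.36 (SE 0.32) for TRIM29 and 1.17 (SE 0.18) for CSTA. It was -1.68 (SE 1.12) for CLCA2, -0.43 (SE 1.48) for LCE1C and 0.09 (SE 1.69) for LCE1F, and with errors this wide the depth allows no statement on whether the response of these 3 genes differed between the siRNAs. A two-sided z test with Benjamini-Hochberg adjustment over 23195 genes called 3.28% of all genes above 0, CSTA among them, and 2.92% below 0, FLG-AS1 and TRIM29 among them. These were 760 and 677 genes, which became 583 and 792 with equal totals. The interaction rests on the comparisons that chose the 6 genes, so their calls are read no further.

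**Figure D2:**
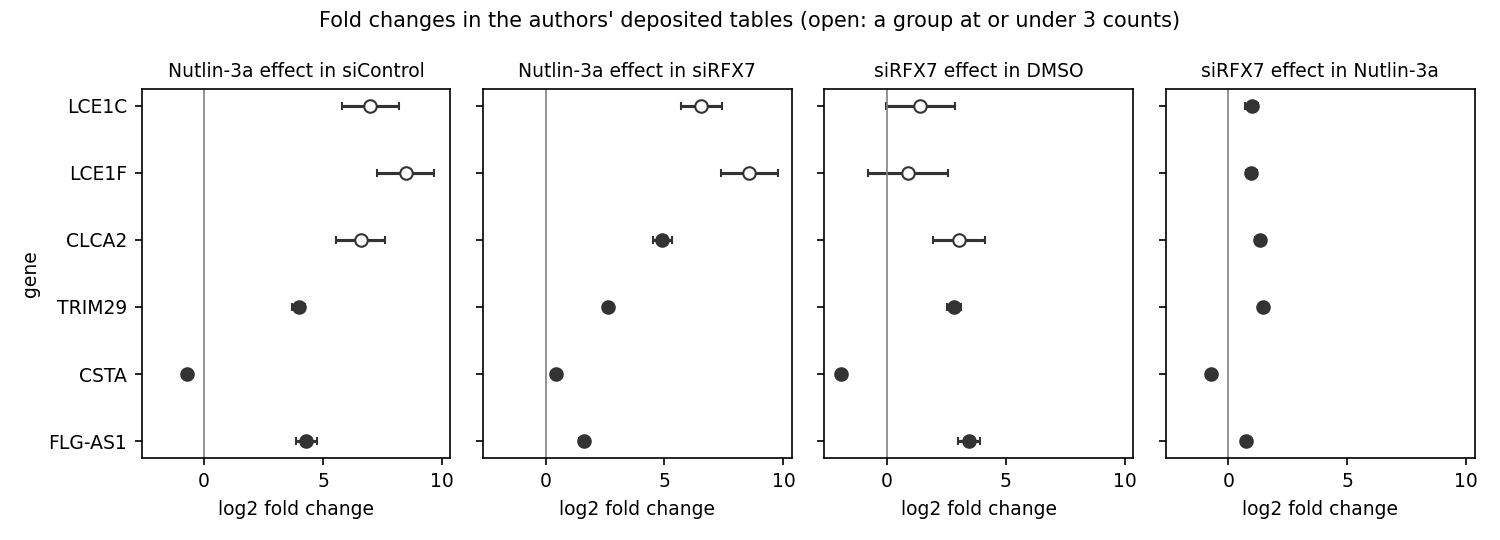
Log2 fold changes of the 6 genes in the authors' deposited tables for the 4 comparisons, with bars of 1 SE. Open points are those where a group was at or under 3 counts, so that the fitted value is no measure of size. All points but those of CSTA lie at or above 0, and CSTA lies below 0 in every panel but the Nutlin-3a effect in siRFX7 cells.

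Levels can be compared between genes only per length, here as the mean normalized count per kilobase of annotated exon. In siControl DMSO, CSTA stood alone at 292 ± 15.0 per kb, and the other 5 lay between 0.148 and 1.05 per kb with wide errors. In siControl Nutlin-3a, LCE1F at 184 ± 20.8 and CSTA at 177 ± 9.96 per kb did not differ beyond their errors, followed by LCE1C at 65.5 ± 9.01 per kb. TRIM29 at 16.4 ± 1.14 and CLCA2 at 14.2 ± 1.64 per kb did not differ beyond their errors either, and FLG-AS1 was lowest at 10.2 ± 1.05 per kb. In siRFX7 DMSO the order was CSTA at 77.5 ± 5.44, TRIM29 at 7.37 ± 0.628 and FLG-AS1 at 5.64 ± 0.665 per kb, with LCE1C, CLCA2 and LCE1F between 0.953 and 1.37 per kb and within each other's errors. In siRFX7 Nutlin-3a, LCE1F led at 361 ± 36.6 per kb, followed by LCE1C at 129 ± 15.9, CSTA at 106 ± 6.76, TRIM29 at 45.0 ± 2.69, CLCA2 at 35.7 ± 3.61 and FLG-AS1 at 17.3 ± 1.62 per kb. These per-length values use GENCODE release 29 exons, and the authors' own annotation is not given in the sources used here. The LCE1F model of 357 bases covers coding sequence alone, so its value per kb depends on which model was used for counting.

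LCE1C, LCE1F and FLG-AS1 lie in the same stretch of 1q21, and their neighbours were followed across it. From S100A10 to S100A1 the stretch spans 1649 kb, with 90 annotated genes, 64 of them protein-coding, of which 23 and 18 had values. With Nutlin-3a, 16 of the 23 rose and 2 fell in siControl cells (median log2 fold change 1.04, against 0.02 over all genes, of which 22% were called higher and 21.2% lower), and 14 rose and 2 fell in siRFX7 cells (median 0.57, against -0.02, with 21.7% and 19.7% of all genes called). With siRFX7, 9 of 22 rose and 3 fell in DMSO (median 0.80) and 6 rose and 3 fell in Nutlin-3a (median 0.17). The medians over all genes were -0.0032 and 0.0022. Of all genes, 13.5% and 15% were called higher there, and 15.5% and 13.6% lower. Over all genes, the interaction was called below 0 for 2.92% and above 0 for 3.28%. Of the 23 genes of the stretch it was called below 0 for 5, FLG-AS1, S100A2, S100A4, S100A5 and S100A6, and above 0 for none. These counts include LCE1C, LCE1F and FLG-AS1 themselves.

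The LCE1 neighbours moved with LCE1C and LCE1F. Of 18 late cornified envelope genes 4 had values, all LCE1 genes, and all 4 rose with Nutlin-3a under both siRNAs (medians 5.70 and 5.34, or 3.74 and 4.51 with low groups at their bound), a count that includes LCE1C and LCE1F. LCE1E rose with Nutlin-3a from 2.0 ± 0.880 to 19.6 ± 4.12 in siControl cells, at least 6.53-fold, and from 4.12 ± 1.35 to 32.3 ± 6.26 in siRFX7 cells, 7.85-fold. LCE1B rose from 1.67 ± 0.774 to 35.5 ± 5.58, at least 11.8-fold, and from 3.17 ± 1.1 to 55.6 ± 8.11, 17.6-fold. Neither passed the test for siRFX7: the log2 fold changes in Nutlin-3a were 0.72 for LCE1E and 0.65 for LCE1B, with DESeq2 adjusted p-values of 0.193 and 0.106 in the authors' deposited table. The levels of LCE1A and LCE1D were not analysed here. LCE1B and LCE1E share 5.96% and 11.2% of their 50-base windows with other genes, all of them LCE1 genes, so part of what they show may be the same reads.

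Of 27 other envelope genes of 1q21, 3 had values, of which 1 rose and 1 fell with Nutlin-3a under each siRNA (medians 0.77 and 0.67, the latter 1.68 with low groups at their bound). In siRFX7 cells the gene called lower, SPRR2D, was under the floor in both groups. Involucrin (IVL), an early scaffold of the envelope, rose from 1.0 ± 0.614 to 10.5 ± 2.89 in siControl cells, at least 3.50-fold, and from 2.22 ± 0.976 to 19.2 ± 4.74 in siRFX7 cells, at least 6.39-fold. SPRR2D, a small proline-rich envelope protein gene, went the other way and fell from 13.9 ± 5.0 to 2.69 ± 1.29 in siControl cells, at least 4.62-fold. Trichohyalin (TCHH), which lies next to FLG-AS1, was at 9.70 ± 2.40, 16.6 ± 3.58, 10.1 ± 2.47 and 16.2 ± 3.52 in the 4 groups and was not called in any comparison.

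**Figure D3:**
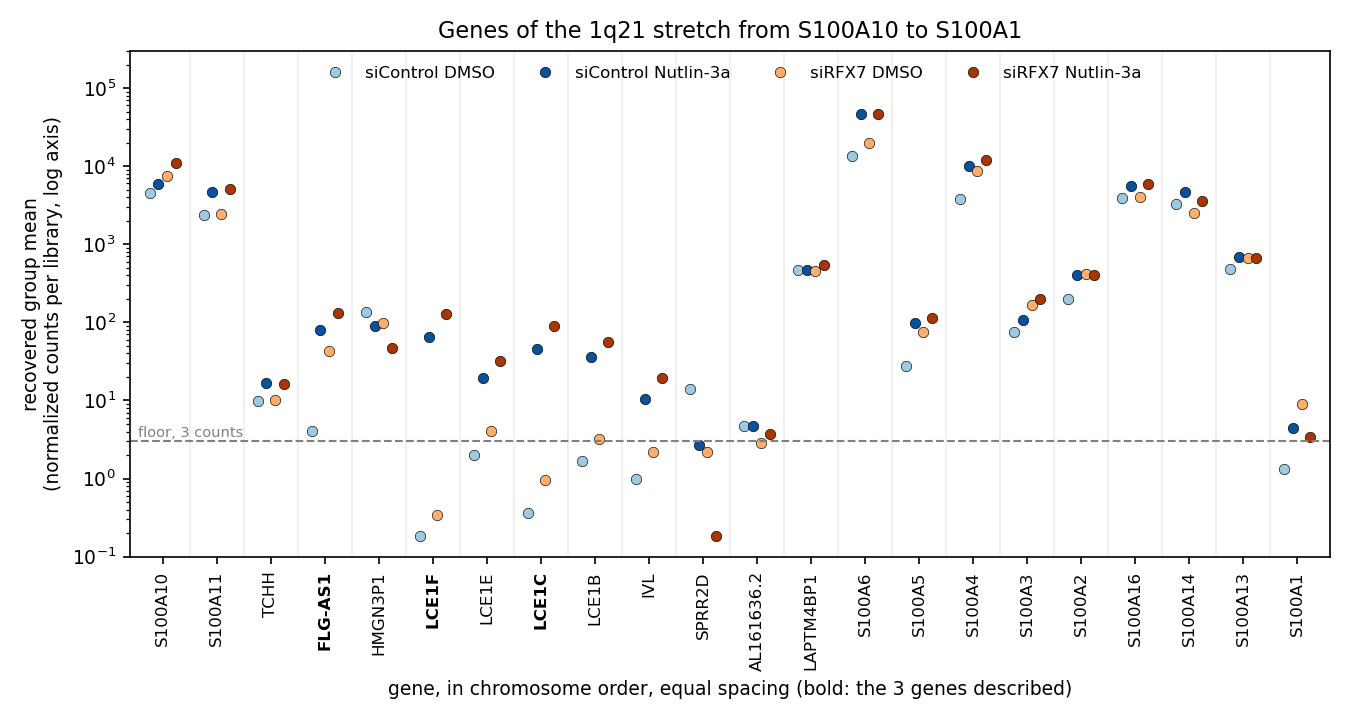
Recovered group means of 22 of the 23 genes of the 1q21 stretch in chromosome order, in normalized counts per library on a log axis (AL589986.2, with a mean of 1.75 over all libraries and no group means, is left out). FLG-AS1, LCE1F and LCE1C are in bold. The LCE1 genes and IVL pass from at or near the floor of 3 counts in DMSO to 10.5 or more with Nutlin-3a, while the S100 genes other than S100A1 are at 27.7 counts or more in every group.

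The genes next to CLCA2, TRIM29 and CSTA lie outside 1q21. ODF2L, before CLCA2, had log2 fold changes with Nutlin-3a of -0.34 and -0.43 in siControl and siRFX7 cells, in the authors' deposited tables. OAF, after TRIM29, had 0.65 and 0.60 there, and AP001994.1, a pseudogene before TRIM29, was not called, nor was AL049597.2, an antisense gene after CLCA2. ILDR1, before CSTA, had 1.16 and 0.97, and CCDC58, after it, had -0.41 and -0.24 in the authors' deposited tables. None of these genes was called for siRFX7 where it was tested.

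The lists below are read beside the shares of all genes called, which were 22% higher and 21.2% lower for Nutlin-3a in siControl cells, 21.7% and 19.7% in siRFX7 cells, 13.5% and 15.5% for siRFX7 in DMSO and 15% and 13.6% in Nutlin-3a, and beside medians over all genes within 0.02 of 0. S100 proteins are small calcium-binding proteins, and several are made in keratinocytes. Of 11 S100 genes of 1q21, 10 rose with Nutlin-3a in siControl cells and none fell (median log2 fold change 0.98, or 0.55 with low groups set at their bound), and 7 rose and none fell in siRFX7 cells (median 0.52). S100A6 rose 3.45-fold, from 13401 ± 342 to 46296 ± 1165, in siControl cells and 2.30-fold in siRFX7 cells. S100A5 rose from 27.7 ± 4.0 to 98.4 ± 10.9 in siControl cells, 3.55-fold, and 1.53-fold in siRFX7 cells. S100A2 rose 2.06-fold in siControl cells, from 196 ± 16.7 to 404 ± 32.4, whereas in siRFX7 cells it was at 412 ± 32.9 in DMSO and 401 ± 32.1 with Nutlin-3a and was not called. In DMSO, siRFX7 raised 8 of the 11 and lowered S100A14 (median 0.72), and in Nutlin-3a it raised 3 and lowered S100A14 (median 0.07).

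Keratins are the intermediate filament proteins of epithelia. Of 11 epidermal keratin genes, 5 rose and 1 fell with Nutlin-3a in siControl cells (median 1.61, or 1.19 with low groups at their bound), and 3 rose and 2 fell in siRFX7 cells (median 1.16, or 0.35). KRT5, the basal cell keratin, rose from 4.68 ± 1.42 to 18.3 ± 3.64 in siControl cells and from 18.1 ± 3.61 to 40.5 ± 6.96 in siRFX7 cells. KRT17, a stress keratin, had the levels 1.0 ± 0.600, 18.9 ± 3.91, 10.1 ± 2.44 and 38.0 ± 7.01 in DMSO and in Nutlin-3a with siControl, then in DMSO and in Nutlin-3a with siRFX7. KRT15 rose 4.17-fold with Nutlin-3a in siControl cells and 2.33-fold in siRFX7 cells, and KRT13 rose 4.29-fold in siControl cells and was not called in siRFX7 cells, at 24.8 ± 4.06 and 23.9 ± 3.95. Of 6 keratins of simple epithelia, KRT8, KRT18 and KRT19 were at 19748 counts or more in every group, whereas KRT20 had a mean of 30.5 over all libraries. With Nutlin-3a, 5 of the 6 rose in siControl cells and 4 in siRFX7 cells, and in Nutlin-3a 5 of 6 were lower with siRFX7 (median -0.33). In DMSO, KRT19 and KRT20 were higher with siRFX7 and KRT18 was lower (median -0.11).

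Of 11 cross-linking enzymes and other envelope proteins, CSTA among them, 6 rose and 1, CSTA, fell in siControl cells (median 0.30, or 0.24 with low groups at their bound), and 7 rose and none fell in siRFX7 cells (median 0.45, or 0.44). TGM5, an epidermal transglutaminase, rose from 0.359 ± 0.301 to 10.8 ± 2.82 in siControl cells, at least 3.61-fold, and from 0.949 ± 0.591 to 29.9 ± 6.57 in siRFX7 cells, at least 9.97-fold. Periplakin (PPL) rose 1.82-fold and 1.70-fold in siControl and siRFX7 cells. TGM2, a tissue transglutaminase, rose 1.41-fold and 1.82-fold, and siRFX7 raised it 1.60-fold in DMSO and 2.06-fold in Nutlin-3a.

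Cystatins were examined as the family of CSTA. Of 6, CST3 and CSTB rose in siControl cells and CSTA fell, and 4 rose in siRFX7 cells, CST3, CSTB, CSTA and CST4, the last with a mean of 2.10 over all libraries. The median log2 fold changes were 0.60 and 0.64, or 0.28 and 0.41 with low groups at their bound. CST3, cystatin C, rose from 2636 ± 115 to 5325 ± 229 in siControl cells, and siRFX7 raised it 1.62-fold in DMSO and 1.43-fold in Nutlin-3a, the opposite side from CSTA. CSTB, the closest intracellular relative of CSTA, was at 2747 ± 98.9 and 2811 ± 101 in siControl and siRFX7 cells in DMSO and was not called for siRFX7 in either treatment.

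Among 17 epidermal proteases and inhibitors, 9 rose and 3 fell in siControl cells (median 0.39) and 9 rose and 2 fell in siRFX7 cells (median 0.51, or 0.40 with low groups at their bound). SERPINB5 (maspin), a known p53 target made in basal epithelia, rose 13.9-fold from 854 ± 31.0 to 11861 ± 366 in siControl cells and 10.8-fold in siRFX7 cells. KLK5 and KLK7 are kallikrein proteases that shed the outermost cells: KLK5 rose 3.30-fold and 2.36-fold and KLK7 2.41-fold and 2.10-fold in siControl and siRFX7 cells. KLK5 was also raised by siRFX7, 4.34-fold in DMSO and 3.10-fold in Nutlin-3a. CTSV, a cathepsin, fell from 540 ± 30.3 to 67.4 ± 5.82 in siControl cells, 8.01-fold.

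Of 15 desmosome genes, which hold epithelial cells together, 8 rose and 3 fell with Nutlin-3a under each siRNA (medians 0.40 in siControl and 0.31 in siRFX7 cells, the latter 0.34 with low groups at their bound). DSC3 rose 4.09-fold in siControl cells, from 458 ± 24.1 to 1873 ± 88.3, and 3.50-fold in siRFX7 cells. DSG3 rose from 0.670 ± 0.515 to 9.91 ± 3.52 in siControl cells, at least 3.30-fold. PERP, a p53 target that sits in desmosomes, rose 1.77-fold and 1.61-fold. With siRFX7, 3 of 14 were higher and 5 lower in DMSO, and 2 were higher and 4 lower in Nutlin-3a, beside shares of 13.5% and 15.5%, then 15% and 13.6%, over all genes.

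Of 25 squamous transcription factors and Notch pathway genes, 14 rose and 6 fell in siControl cells (median 0.71), and 15 rose and 5 fell in siRFX7 cells (median 0.48, or 0.56 with low groups at their bound). ZNF750, which acts downstream of p63 in epidermal differentiation, rose from 0.668 ± 0.483 to 35.1 ± 6.44 in siControl cells, at least 11.7-fold, and from 0.633 ± 0.470 to 39.7 ± 7.16 in siRFX7 cells, at least 13.2-fold. GRHL3, a factor for the skin barrier, rose 5.32-fold and 3.05-fold, and siRFX7 raised it 2.66-fold in DMSO. TP73 fell 3.87-fold and OVOL2 7.47-fold in siControl cells. TP63 itself had a mean of 1.24 over all libraries and was not called. In siRFX7 against siControl, 2 of 23 were higher and 9 lower in DMSO and 5 higher and 9 lower in Nutlin-3a.

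Of 14 barrier lipid genes, 6 rose and 4 fell in siControl cells (median 0.03, or 0.16 with low groups at their bound) and 6 rose and 1 fell in siRFX7 cells (median -0.01, or 0.01). ABCA12, the lipid transporter of lamellar granules, rose 25.0-fold from 66.1 ± 5.96 to 1651 ± 94.8 in siControl cells and 13.1-fold from 120 ± 9.19 in siRFX7 cells. The lipoxygenases ALOX12B and ALOXE3 rose 3.10-fold and 2.02-fold in siControl cells. With siRFX7, 6 of 13 were higher and none lower in each treatment.

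Over all 12 lists, the keratins of simple epithelia included, 123 genes had values. Of these, 71 rose and 19 fell with Nutlin-3a in siControl cells, a median log2 fold change of 0.61 (0.52 with low groups at their bound) against 0.02 over all genes. Without the 4 listed members of the set, LCE1C, LCE1F, CLCA2 and CSTA, it was 68 higher and 18 lower of 119, with a median of 0.57. In siRFX7 cells 64 of these 119 rose and 14 fell (median 0.49). With siRFX7 in DMSO, 37 of 112 were higher and 23 lower (median 0.17), which became 43 and 17 with equal totals, and in Nutlin-3a 31 of 110 were higher and 26 lower (median 0.06). The lists were written with earlier results of these data known and are no independent evidence, and with no set test nothing particular to epidermal genes is read from them.

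**Figure D4:**
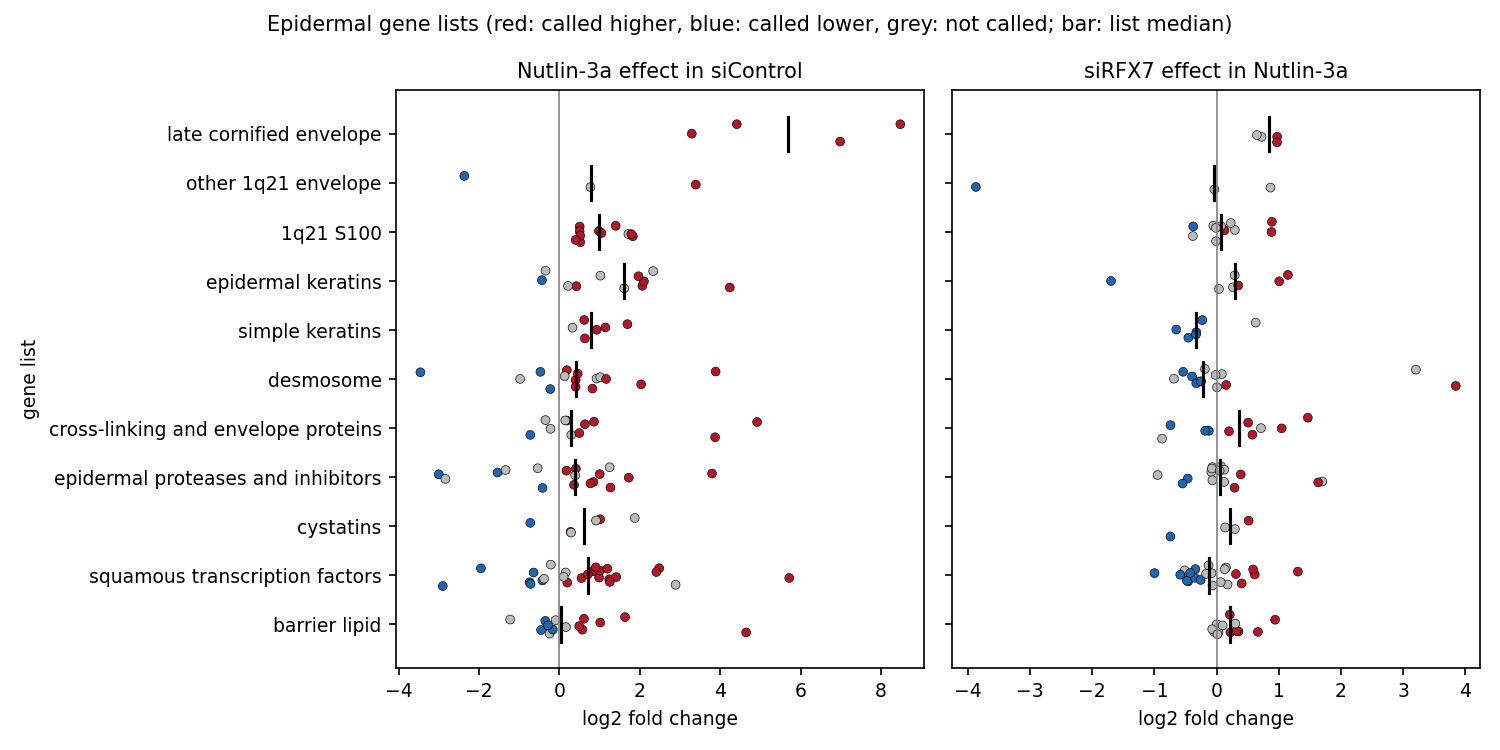
Log2 fold changes in the authors' deposited tables of the genes of 11 epidermal lists, for the Nutlin-3a effect in siControl cells and the siRFX7 effect in Nutlin-3a (the CLCA family, with CLCA2 alone, is left out). Each point is a gene, red if called higher, blue if called lower and grey if not called, and bars are list medians. With Nutlin-3a all 4 late cornified envelope genes lie above 3, while TP73 and SPRR2D are among the genes at the left.

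The cells were checked against markers fixed by name. The epithelial keratins KRT8, KRT18 and KRT19 were at 19748 to 121100 counts in every group, EPCAM at 6019 to 9303 and CDH1 at 1967 to 3373, while the intestinal markers CDH17 and VIL1 had means of 1.41 and 8.0 over all libraries. LGR5 and ASCL2 were not analysed here. With Nutlin-3a, KRT8, KRT18, KRT19 and CDH1 were called higher under both siRNAs and VIL1 in siRFX7 cells alone. EPCAM was called lower under both, with log2 fold changes of -0.51 and -0.63 in siControl and siRFX7 cells in the authors' deposited tables. Of 14 keratinocyte marker symbols, which count loricrin under both its symbols, 9 had values. Of these, 4 rose with Nutlin-3a in siControl cells (KRT5, DSC3, DSG3 and IVL), 1, KRT10, fell, and KRTDAP, SBSN, TP63 and DSG1 were not called. Their summed level was 1939, 3003, 2150 and 3102 in DMSO and in Nutlin-3a with siControl, then in DMSO and in Nutlin-3a with siRFX7, and KRT10 and DSC3 made up most of it. KRT14, KRT1, FLG and loricrin were not analysed here, and TP63 and DSG1 had means of 1.24 and 1.32 over all libraries. In bulk RNA a change in the share of cells of one kind and a change in RNA per cell cannot be told apart, and the part of these markers in the results above was not tested. Of the leukocyte and endothelial markers, VWF was highest, at 11.5 to 15.8 counts. Of 4 fibroblast markers with values, COL1A1 was at 349 to 515 counts and the others had means of 2.08 or less over all libraries.

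Recovered group totals were 25915992 to 27407526 normalized counts per library, and MDM2 and CDKN1A, targets of p53, rose with Nutlin-3a under both siRNAs. MDM2 went from 4705 ± 149 to 74982 ± 2287 in siControl cells and from 6591 ± 206 to 64906 ± 1981 in siRFX7 cells. RFX7 was lower with its siRNA, at 185 ± 10.1 against 944 ± 37.1 in DMSO and 302 ± 14.4 against 1332 ± 50.5 in Nutlin-3a.

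The genes whose pattern over the 4 groups was most like that of a member were found among 18371 genes with all group means above 3 counts, as the smallest Euclidean distance over 3 log2 fold changes (both Nutlin-3a comparisons and siRFX7 in DMSO). This was done for TRIM29, CSTA and FLG-AS1, since the others had groups under the floor. Nearest to TRIM29 were KLHDC7A at 0.627, RNF157-AS1 at 0.778 and COL17A1, the collagen of hemidesmosomes, at 0.911. COL17A1 had the levels 46.4, 771, 187 and 1525 in DMSO and in Nutlin-3a with siControl, then in DMSO and in Nutlin-3a with siRFX7. Nearest to FLG-AS1 were INPP5D at 0.849, FAM92B at 1.07 and TRIM29 at 1.21. Nearest to CSTA were LCN2, a secreted lipocalin, at 0.321, POLR2J4 at 0.329 and AL021707.6 at 0.412. LCN2 had the levels 19.8, 12.9, 4.75 and 5.39 in the same order of groups, the last 2 close to the floor.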

How the data were processed

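The values are 4 result tables of DESeq2, one per pair of groups, that the authors deposited. Per the submitters' processing notes, reads were processed with cutadapt 2.10, Trimmomatic 0.39 and SAMtools 1.10, genes were counted with featureCounts 1.6.5, DESeq2 was version 1.20.0 and the build was hg38. The notes list tools without their order or role, and the aligner, the annotation, the strand setting and the treatment of reads with several matches are not given in the sources used here. The mean normalized count is a signal, counts divided by size factors and averaged over the 12 libraries, per the file headers. Per the file headers, each fold change is a log2 value and so is its standard error. The deposited statistic, a score, equals the log2 value divided by that error. P-values and adjusted p-values are those the authors deposited.

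Group means were recovered from the mean normalized count and the fold changes, which closed to 1.27e-14 with the siRFX7 tables read as siRFX7 over siControl. Dispersions, and from them the errors of group means, were solved from the standard errors with equal library depths and fitted means of at least 0.5, which rebuilt the standard errors of 20026 genes to within 2.42%. Group means of 3 counts or less were taken as a floor and folds against them as bounds. The edgeR test planned for counts could not be run on such statistics and was not used. The deposited test took its place, called at an adjusted p-value below 0.05. The z test of the interaction assumes known standard errors. This test and the recovery were tested on simulated data with equal depths and the same model of spread. Interactions were planted, and recovery was judged, only in genes well counted in every group. Neither was checked for genes with a low group. Annotation came from GENCODE release 29 (99.9% of gene IDs found) and promoters from RefSeq. Python 3.11.15, pandas 2.3.3, numpy 2.4.6, scipy 1.17.1 and matplotlib 3.10.9 were used. The depth of single libraries is unknown, and floors cover counting error only.

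The members and the gene lists were chosen with earlier results of these data known. Genes named are the 6 members, list members among the 4 called genes with the largest change per list and comparison or the 2 most abundant per list, the nearest genes on each side of a member, MDM2, CDKN1A and RFX7, and the 3 genes most like a member. The alternatives tried were a minimum fold, a stricter threshold, equal group totals, 2 filters on low values and other floors.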

Additional observations from a re-analysis of the deposited data

Results flagged for a closer look

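The results below were picked out because the Nutlin-3a log2 fold change differed between siRFX7 and siControl cells by the z test of the interaction, given as siRFX7 minus siControl. Of the 6 genes described, FLG-AS1 (-2.68), TRIM29 (-1.36) and CSTA (1.17) were among them. FLG-AS1 and TRIM29 were higher with Nutlin-3a under both siRNAs, by a smaller log2 fold change in siRFX7 cells, which began from a higher level in DMSO. In counts, TRIM29 rose from 10.7 ± 1.97 to 167 ± 11.6 in siControl cells. In siRFX7 cells it rose from 75.3 ± 6.42 to 460 ± 27.4, a larger difference. FLG-AS1 rose from 4.0 ± 1.20 to 78.8 ± 8.06 in siControl cells and from 43.3 ± 5.11 to 133 ± 12.4 in siRFX7 cells. With these errors its differences in counts cannot be ranked. CSTA was lower with Nutlin-3a in siControl cells and higher in siRFX7 cells, which began from a lower level.

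Other genes of the lists with a smaller Nutlin-3a value in siRFX7 cells were KRT13 (-2.15), S100A5 (-1.22), S100A2 (-1.08), ABCA12 (-0.93), S100A4 (-0.93), KRT15 (-0.84), GRHL3 (-0.80), KRT80 (-0.79), EHF (-0.71), KRT19 (-0.67), S100A6 (-0.59), KRT23 (-0.58), SERPINB5 (-0.37), DSC2 (-0.33) and JUP (-0.21). Of these, KRT19 and KRT23 are keratins of simple epithelia. CEBPB (0.76), TP73 (0.71) and SERPINB8 (0.70) lay above 0. Among 123 epidermal list genes the interaction was called below 0 for 16, the 15 named from KRT13 to JUP and ELF3 (-0.49), and above 0 for 5, CSTA, CEBPB, TP73, SERPINB8 and KLF4 (0.44), beside 2.92% and 3.28% of all genes. ELF3 and KLF4 were named after their values were seen. The p53 targets CDKN1A (-0.93) and MDM2 (-0.69) also had a smaller value in siRFX7 cells. The interaction is the difference of both Nutlin-3a comparisons, which were known when the 6 genes were chosen. For these genes it is a description.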

How the results depend on the processing

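Of the 5 alternatives apart from floors, only equal group totals changes a log2 value, and under it the values of the 6 genes kept their direction. The rest act on calls alone. CLCA2 was no longer called for siRFX7 in DMSO at an adjusted p-value below 0.01, and CSTA was no longer called for Nutlin-3a in siRFX7 cells under a minimum absolute log2 value of 0.58. All 30 results of the 6 genes over the 5 comparisons, called or not, were the same with equal group totals. They were also the same with a mean of at least 10 counts and over genes listed in all 4 tables, filters that all 6 genes pass. With the minimum of 0.58, called genes numbered 5198 and 4830 for Nutlin-3a in siControl and siRFX7 cells (10022 and 9601 without it), 1547 and 1482 for siRFX7 in DMSO and in Nutlin-3a (5811 and 5554 without it) and 544 for the interaction (1437 without it), which was 863 at an adjusted p-value below 0.01. With that minimum, the epidermal lists held 53 calls for Nutlin-3a in siRFX7 cells, 31 for siRFX7 under DMSO and 22 under Nutlin-3a, against 82, 60 and 57. Equal group totals shifted log2 fold changes by at most 0.057. For named genes, 286 results were followed: the calls, and all results of the 6 genes whether called or not. Of these, 275 were the same with equal totals, 243 at the stricter threshold and 195 with the minimum fold. With floors of 1 and 10 counts in place of 3, the Nutlin-3a bounds in siControl cells were 45.4 and 4.54 for LCE1C, 65.7 and 6.57 for LCE1F and 63.9 and 6.39 for CLCA2, and FLG-AS1 became a bound of 7.88 at 10 counts. At 10 counts the siRFX7 fold of FLG-AS1 in DMSO also became a bound, of 4.33. The Nutlin-3a fold of CLCA2 in siRFX7 cells became a bound of 16.1 there. No paired analysis was possible because the tables hold no values per library, and for the same reason no replicate could be left out.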
